A study of Mus musculus with 16 samples.

Results

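The response to disc injury was examined in mice carrying the Adam8EQ allele, in 5 mice with injured discs and 4 with intact discs. These 9 libraries, taken by their titles, are part of 16 in the series. The other 7 libraries are from wild-type mice and entered the shared estimate of spread and a single test of the difference between genotypes. Each library pooled 4 coccygeal (tail) discs of 1 mouse, so a replicate is an animal, and all 9 mice carry the same allele, which the labels describe only as Adam8EQ. DBA, the name of an inbred strain, stands in the series title. How the injury was made, the time from injury to collection, and the age and sex of the mice are not given in the sources used here. Levels are TPM (transcripts scaled by length and library total), and a change is the difference of mean log2(TPM + 1), injured minus intact, with the ordinary standard error of the fit. Differences of weakly expressed genes come out too small on that scale. A gene is called where its limma adjusted p is under 0.05.

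The disc joins a gelatinous core, the nucleus pulposus, whose notochordal cells express the transcription factor T (brachyury), to a fibrous ring, the annulus fibrosus. Its cells make cartilage-like matrix of aggrecan, collagen and small proteoglycans in tissue with few vessels. Hurt disc cells and the leukocytes that enter a wound make cytokines, chemokines and matrix proteases, many of them through the transcription factors NF-kappaB, STAT3 and AP-1. ADAM8 is a metalloprotease on the cell surface, prominent on leukocytes, and cleaves fibronectin among other proteins.

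The intact libraries held the defining transcripts of disc tissue. Acan, which encodes aggrecan, lay at 5926 to 6913 TPM in them, Chad, which encodes chondroadherin, at 17291 to 18411, and T at 1789 to 2916. Reads back-calculated from TPM and exon length numbered 10212552 (intact mouse 1) to 24870289 (injured mouse 1) per library, and 20085 to 21556 genes reached 1 TPM. Correlations of log2(TPM + 1) between the 9 libraries lay between 0.92 and 0.976, and no pair was identical. Library names begin with A8 in injured mice 1 and 2 and intact mice 1 and 2, and with M in the remaining 5 libraries. What the names stand for is not stated, so medians within each style are given for most lists. Injured mouse 2 stood apart in several gene groups, and counts or medians without it are given for several of them.

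Of 24188 genes tested, 7438 were called between injured and intact mutants, 30.8% of all, with 3168 higher (13.1%) and 4270 lower (17.7%). At a log2 change of 1 or more, 1455 were higher and 1704 lower, and at 3 or more 190 were higher and 29 lower. The largest changes on this scale were thus mostly rises. A gene cannot fall there by more than its intact log2(TPM + 1), whereas a rise has no such bound. Every injured library lay above every intact one for 2891 genes (12.0%) and below every intact one for 3698 (15.3%). The median change of all tested genes was -0.08. The count for each gene list below stands against these shares. Counts within a library name style stand against fewer calls over all tested genes. These were 1609 higher and 1974 lower among A8 libraries alone, and 320 and 405 among M libraries alone. A list with few or 0 calls among M libraries is therefore not shown to be unchanged there. Genes called higher were protein coding in 83.9%, and those called lower in 70.7%, against 60.7% of the genes tested. With median-of-ratios scaling 52.1% of the calls were higher, against 42.6% without it. The injury effect differed between mutants and the wild type for 0 genes in limma at an adjusted p under 0.05 (1979 at an unadjusted p under 0.05), so no change below is shown to be particular to the mutants.

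**Figure D1:**
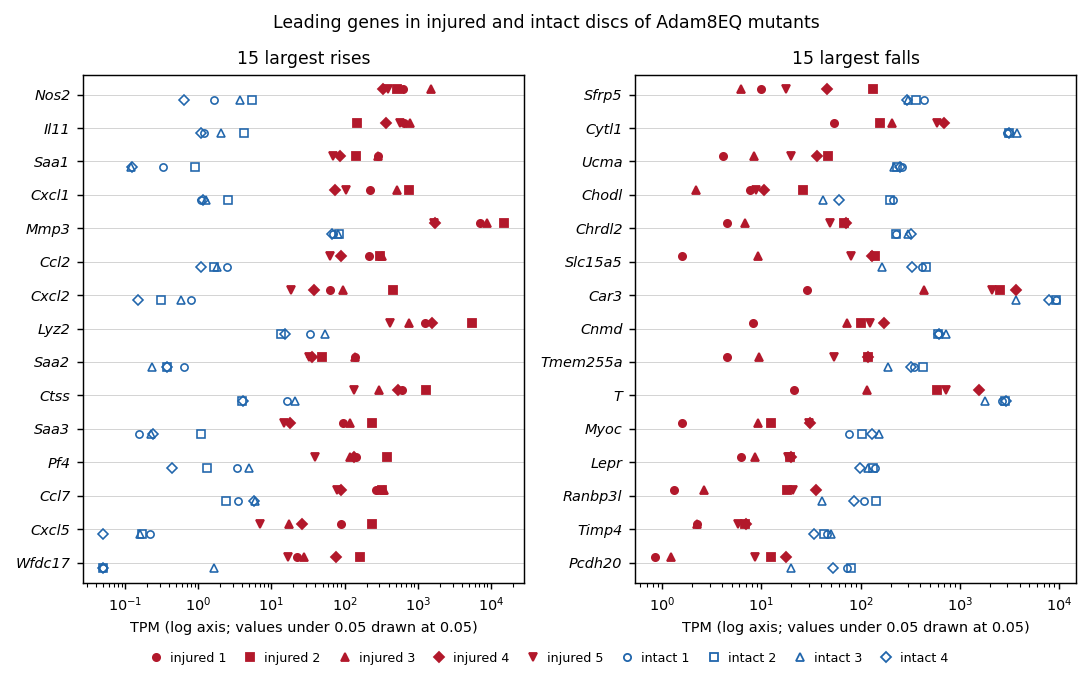
TPM on a log axis of the 15 genes with the largest rises (left) and the 15 with the largest falls (right), with filled red symbols for the 5 injured and open blue symbols for the 4 intact mutant mice. No gene's red and blue symbols overlap, by the rule that chose the genes, and Nos2 reached 332 to 1516 TPM in injured discs against 0.632 to 5.35 in intact ones.

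Adam8, the mutated gene, was itself among the genes that rose. Its level was 68.4, 264, 39.4, 48.3 and 16.2 TPM in injured mice 1 to 5 and 2.97, 1.08, 0.956 and 1.2 TPM in intact mice 1 to 4. Each injured mouse lay above each intact one, and mouse 2 stood far above the other injured mice. The change was 4.56 ± 0.89 (SE, limma adjusted p 0.00156). The gene lies at chr7:139978932-139992562 on the minus strand of GRCm38, and these values do not check the allele, which would need the sequence of the transcripts.

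The largest rise of any tested gene was that of Nos2, inducible nitric oxide synthase, at 7.43 ± 1.11 (SE, limma adjusted p 0.000467). Gch1, which makes the cofactor that nitric oxide synthases need, rose too, by 1.84 ± 0.37 (SE, limma adjusted p 0.00212). Arg1, arginase, which uses the same substrate, was at 198, 727, 182, 119 and 24.6 TPM injured and 12.3, 8.1, 6.41 and 5.67 TPM intact. Arg1 values did not overlap between the groups. In the prostaglandin branch, Ptgs2 (the inducible cyclooxygenase) rose by 3.27 ± 1.07 (SE, limma adjusted p 0.0198) and Ptges (a prostaglandin E synthase) by 2.66 ± 0.60 (SE, limma adjusted p 0.0032). Ptgs1, the constitutive cyclooxygenase, went the other way, at 23.2, 312, 72.5, 421 and 232 TPM in injured mice and 1129, 1145, 457 and 902 TPM in intact mice. It was lowest in injured mouse 1, and its change was -2.60 ± 0.75 (SE, limma adjusted p 0.0109). Ptgis, the prostacyclin synthase, and Ptgds, a prostaglandin D synthase, also fell, by 1.68 and 1.86 on the log2 scale. Of 18 tested genes of nitric oxide and prostaglandin synthesis, 8 were higher, 4 lower and 6 not called, with a median change of 0.33 (0.74 among A8 and 0.39 among M libraries).

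Chemokines formed the group with the highest median change of the 47 lists, 3.69, and 13 of 19 tested members were higher, 1 lower and 5 not called. Cxcl1, a neutrophil attractant, was at 222, 772, 528, 74.6 and 106 TPM injured and 1.08, 2.52, 1.26 and 1.16 TPM intact. Ccl2, a monocyte attractant, was at 214, 306, 330.3, 90.7 and 64.2 TPM in injured mice and 2.49, 1.66, 1.82 and 1.09 TPM in intact mice. The groups did not overlap for either gene, and injured mice 4 and 5 held the lowest injured values of both. Cxcl2 (5.68), Ccl7 (5.17) and Cxcl5 (5.10), attractants of neutrophils and monocytes, followed on the log2 scale. Ccl3 and Ccl4 were far higher in 1 animal, with 358 and 151 TPM in injured mouse 2 against at most 37.2 and 13.5 TPM in the other injured mice. Each call was lost without any 1 of 6 mice, intact ones among them (2.84 to 3.83 and 2.80 to 3.70). Cxcl13, a B cell attractant, was the member that fell, at 1.05, 20.7, 1.86, 1.81 and 1.09 TPM injured and 58, 73.6, 5.91 and 12.9 TPM intact. Injured mouse 2 lay above intact mice 3 and 4, so the groups overlapped. The median was 5.12 among A8 libraries, 3.0 among M libraries and 2.84 without injured mouse 2, when 10 members were called higher. Leukocyte markers rose in the same libraries, with 16 of 20 macrophage markers called higher, and their part in these rises was not tested. Fewer cells of a type and less RNA per cell cannot be told apart in bulk tissue, which applies to every marker described here.

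The 250 bases before the start of a chemokine gene and of other responders are shown because they let a reader see the letters that NF-kappaB, AP-1 and clock factors are known to bind. The sequences are from RefSeq's promoter table on GRCm38.p6, 5′ to 3′ on the gene's strand, and the capitals mark a match on either strand of the motif named. The first 3 show the NF-kappaB motif (GGG, any 2 bases, then TTTCC), Mmp3 shows TGANTCA (AP-1), and Per1 and Ciart show CACGTG (the E-box of the clock).
Cxcl1 (chr5:90890995-90891244, plus strand): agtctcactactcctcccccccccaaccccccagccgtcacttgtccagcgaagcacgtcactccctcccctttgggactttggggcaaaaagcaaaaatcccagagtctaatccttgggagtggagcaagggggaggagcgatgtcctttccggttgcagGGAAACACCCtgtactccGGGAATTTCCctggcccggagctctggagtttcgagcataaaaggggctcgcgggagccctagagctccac
Cxcl2 (chr5:90903649-90903898, plus strand): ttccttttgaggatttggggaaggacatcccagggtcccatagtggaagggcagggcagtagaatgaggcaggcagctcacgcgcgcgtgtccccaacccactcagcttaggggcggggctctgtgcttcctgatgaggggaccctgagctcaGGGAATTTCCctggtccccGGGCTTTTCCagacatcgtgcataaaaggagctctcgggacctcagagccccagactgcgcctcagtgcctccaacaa
Nfkbia (chr12:55492648-55492897, minus strand): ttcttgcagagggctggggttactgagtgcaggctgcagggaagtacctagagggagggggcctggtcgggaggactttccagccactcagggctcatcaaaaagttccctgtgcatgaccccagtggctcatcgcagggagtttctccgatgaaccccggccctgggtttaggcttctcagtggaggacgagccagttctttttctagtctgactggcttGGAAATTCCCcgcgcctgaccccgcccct
Mmp3 (chr9:7445572-7445821, plus strand): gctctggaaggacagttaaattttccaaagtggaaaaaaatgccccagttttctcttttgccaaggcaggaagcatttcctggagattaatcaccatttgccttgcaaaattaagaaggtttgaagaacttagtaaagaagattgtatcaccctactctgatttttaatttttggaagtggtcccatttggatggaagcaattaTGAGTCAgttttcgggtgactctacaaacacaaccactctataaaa
Per1 (chr11:69098699-69098948, plus strand): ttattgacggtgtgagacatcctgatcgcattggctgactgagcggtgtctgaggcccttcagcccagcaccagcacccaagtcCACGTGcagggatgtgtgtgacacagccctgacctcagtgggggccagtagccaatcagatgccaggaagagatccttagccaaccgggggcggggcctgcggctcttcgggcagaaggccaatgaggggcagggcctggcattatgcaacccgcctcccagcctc
Ciart (chr3:95882229-95882478, minus strand): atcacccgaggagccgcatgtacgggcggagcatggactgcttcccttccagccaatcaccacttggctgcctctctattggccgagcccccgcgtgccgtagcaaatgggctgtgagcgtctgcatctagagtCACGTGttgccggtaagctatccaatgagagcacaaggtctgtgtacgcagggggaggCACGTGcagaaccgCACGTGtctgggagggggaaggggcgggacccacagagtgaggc
The windows of Cxcl1 and Cxcl2, neighbours on chromosome 5, each held 2 matches, and that of Ciart held 3. The window of Per1 precedes a start inside the annotated gene, the other Per1 window holding no match. The NF-kappaB motif stood in 1.41% of all 32841 windows, in 1.71% of tested genes with a window and in 4 of 15 of the NF-kappaB list. It stood in 2 of the 11 genes with a window among the 15 largest rises. Among the 15 largest falls it stood in 1 of the 13 genes with a window, that of Lepr. TGANTCA stood in 6.75% of windows, in 6.04% of tested genes, in 2 of the same 11 genes and in 0 of the same 13. In the NF-kappaB list it stood in 4 of 15, as often as the NF-kappaB motif did. CACGTG stood in 6.02% of windows, in 9.15% of tested genes and in 5 of 16 clock genes. No window of the 11 hedgehog genes that have one held GACCACCCA, a GLI motif found in 0.225% of windows. Among genes called higher and lower, the NF-kappaB motif stood in 2.37% and 1.51%, and TGANTCA in 7.9% and 5.78%. CACGTG stood in 9.8% and 9.12% of them, close to the 9.15% of tested genes. A match is a string of letters and was not tested as a binding site.

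Most tested genes of interleukins and their receptors rose, and a few of each kind fell. Of 22 tested members, 15 were higher, 4 lower and 3 not called (median 1.30, with 1.6 among A8 and 1.05 among M libraries). Il11, a cytokine of the interleukin-6 family, was at 657, 149, 780.0, 370.0 and 577 TPM in injured mice and 1.21, 4.22, 2.06 and 1.08 TPM in intact mice. Lif, of the same family, was at 22.8, 38.7, 61.5, 17.9 and 26 TPM injured and 0.93, 1.01, 1.15 and 0.783 TPM intact. Neither gene's groups overlapped, and among injured mice Il11 was lowest in mouse 2, where Il1b, Tnf and Osm were highest. Il6 lay at 3.19 to 20.9 TPM in injured discs against 0 to 0.833 TPM in intact ones. Among the receptors of this family, Osmr and Il6ra were higher (1.36 and 0.78 on the log2 scale), while Lifr and Il11ra1 were lower (-0.94 and -0.66). The call of Lifr was lost without intact mouse 3 (-0.72). Il1b, a central inflammatory cytokine, was at 24.8, 311, 19.7, 32.5 and 2.96 TPM in injured mice and 2.55, 1.81, 1.24 and 2.6 TPM in intact mice. Injured mouse 2 stood far above the rest, and mouse 5 was barely above the intact mice. Il1rn, a receptor antagonist, and Il1r2, a decoy receptor, were also highest in mouse 2 and lowest among the injured in mouse 5. Il33 and Il18, cytokines that resident cells hold in store, fell by 1.83 and 1.28 on the log2 scale. Il1a was not called, at 1.71 to 9.09 against 2.25 to 4.19 TPM.

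The NF-kappaB list holds subunits, kinase genes such as Ikbkb, and inhibitors that the factor itself induces. It had 15 of 19 tested members higher, 1 lower and 3 not called. Ikbkb was lower, a call lost without any 1 of 8 mice (-0.26 to -0.21). Its median was 1.22, with 1.57 among A8 libraries and 0.93 among M libraries, where 1 member was called. Bcl3, an atypical inhibitor, was at 94.3, 90.9, 92.9, 60.8 and 65.1 TPM injured and 2.45, 2.8, 5.97 and 4.63 TPM intact. Its injured values lay close together and far above the intact ones, a change of 4.08 ± 0.41 (SE, limma adjusted p 7.12e-05). Nfkbia, which encodes the inhibitor IkappaB alpha and whose promoter is shown above, was at 259, 455, 461, 167 and 165 TPM in injured mice and 102, 107, 99.3 and 103 TPM in intact mice. Zc3h12a, an RNase that degrades cytokine transcripts, and Nfkbiz, a nuclear inhibitor, rose by 2.27 and 2.13. Rela, the main activating subunit, was among those not called.

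In JAK-STAT3 signalling, 9 of 19 tested members were higher and 2 lower (median 0.41, with 0.58 among A8 and 0.29 among M libraries). Socs3, the feedback inhibitor of receptors of the interleukin-6 type, was at 200.1, 334, 377, 144 and 214 TPM injured and 43, 41.6, 23.6 and 19.1 TPM intact. Cebpd and Cebpb, transcription factors of the acute phase, rose by 2.38 ± 0.26 (SE, limma adjusted p 0.000117) and by 2.32 ± 0.53 (SE, limma adjusted p 0.00319). The groups did not overlap for these 3 genes. Interferon-stimulated genes gave 2 of 20 higher and 3 lower, both shares below the background, with a median of -0.07 whose sign turned under 7 of 22 alternatives (0.31 among A8 and -0.27 among M libraries). Without injured mouse 1, 5 of them were called lower. Ifit1, a typical member, was at 104, 5.54, 15.7, 10.5 and 11.9 TPM in injured mice and 18.6, 25, 14.4 and 22 TPM in intact mice. Injured mouse 1 alone was high, and the other injured mice lay below the intact ones or at their low end.

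AP-1 and other immediate early genes had 7 of 19 tested members higher and 0 lower (median 0.73, and 0.40 without intact mouse 3). Among A8 libraries the median was 0.43, with 2 higher and 1 lower, and among M libraries 1.16, with 4 higher and 0 lower. Fosl1, a late AP-1 subunit, was at 94.2, 134, 175, 67.8 and 95.3 TPM injured and 3.79, 2.95, 6.58 and 4.72 TPM intact, a change of 4.34 ± 0.81 (SE, limma adjusted p 0.00118). Junb (1.94) and Fosl2 (0.99), also subunits, rose as well. Fos itself was not called, at 116, 250.4, 105, 60.8 and 108 TPM in injured mice and 393, 381, 27.4 and 23.2 TPM in intact mice. Intact mice 1 and 2, whose libraries have A8 names, were above every injured mouse, while intact mice 3 and 4 were below every one.

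Acute-phase and antimicrobial proteins had 13 of 18 tested members higher and 0 lower (median 2.39, with 2.25 among A8 and 1.99 among M libraries, and 11 higher without injured mouse 2). Lcn2, the iron-scavenging lipocalin 2, was at 4427, 1729, 4042, 1573 and 1387 TPM injured and 86.7, 83.7, 182 and 100.4 TPM intact. Chil1, a chitinase-like protein of activated chondrocytes and macrophages, was at 5374, 2223, 6632, 2704 and 3250 TPM in injured mice and 179.8, 189.8, 612 and 274 TPM in intact mice. Both were abundant in injured discs and did not overlap with intact ones, with changes of 4.42 ± 0.48 (SE, limma adjusted p 0.000117) and 3.75 ± 0.40 (SE, limma adjusted p 0.000117). Saa1 and Saa2, serum amyloid genes, rose by 6.81 and 5.55, but they are near-identical copies and the split of reads between them is uncertain. Lbp, which binds bacterial lipopolysaccharide, was at 1284, 204, 1154, 663 and 1005 TPM injured and 97.5, 91.5, 119 and 85.2 TPM intact. It was lowest among injured mice in mouse 2, unlike most chemokines. Serpina3n, a protease inhibitor, had its lowest value of all in the same mouse, at 1350, 88.9, 1339, 1362 and 1844 TPM in injured mice and 126, 137, 483 and 193 TPM in intact mice, and was not called.

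Matrix metalloproteinases rose in a narrow subset. Mmp3, stromelysin, which cleaves aggrecan and activates other metalloproteinases, was at 7078, 15323, 8744, 1713 and 1692 TPM injured and 70.3, 85.2, 81.9 and 66.6 TPM intact. Injured mice 1, 2 and 3 were high, mice 4 and 5 lower, and all 5 far above the intact mice, a change of 5.99 ± 1.25 (SE, limma adjusted p 0.00202). Mmp13, the main collagenase of cartilage in mice, was at 56.5, 398, 36.6, 10.5 and 10.2 TPM in injured mice and 1.21, 0.471, 0.663 and 0.696 TPM in intact mice, with mouse 2 highest. Mmp12 (4.64), an elastase of macrophages, Mmp19 (2.49) and Mmp28 (0.92) completed the 5 higher of 16 tested members, and 0 were lower. The call of Mmp28 was lost without any 1 of 7 mice (0.74 to 0.95). Mmp9 and Mmp14 were not called, at 0.0886 to 59.4 against 0 to 0.334 TPM and 137 to 289 against 91.7 to 124 TPM. The aggrecanases differed in level and call. Adamts4 was at 6.53, 15.4, 8.27, 3.15 and 2.61 TPM injured and 0.168, 0.131, 0.737 and 0.0644 TPM intact, without overlap, whereas Adamts5 was not called, at 18.5 to 51.6 against 16.2 to 26.1 TPM. Over 14 tested ADAMTS genes, 1 was higher and 4 lower. The metalloproteinase median was 0.79, with 1.51 among A8 libraries, and 0.39 without injured mouse 2. Among M libraries no gene of either list was called, with medians of 0.35 and 0.12.

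The inhibitors of these proteases split. Timp1 was at 758, 622, 896, 349.8 and 587 TPM in injured mice and 23.2, 25.1, 40.6 and 41.9 TPM in intact mice, a change of 4.24 ± 0.48 (SE, limma adjusted p 0.000127). Timp4, in contrast, was at 2.25, 6.84, 2.23, 7.02 and 5.8 TPM injured and 46.1, 42.5, 50.4 and 33.7 TPM intact. Timp2 and Reck, also inhibitors of metalloproteinases, fell by 1.25 and 0.88 on the log2 scale, and Timp3 was not called. The plasminogen system rose at the activator Plau (4.12) and its receptor Plaur (3.30). In all, 4 of 10 tested genes were higher and 3 lower. A8 libraries alone and M libraries alone each gave 4 higher and 2 lower, with medians of 0.18 and 0.69.

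**Figure D2:**
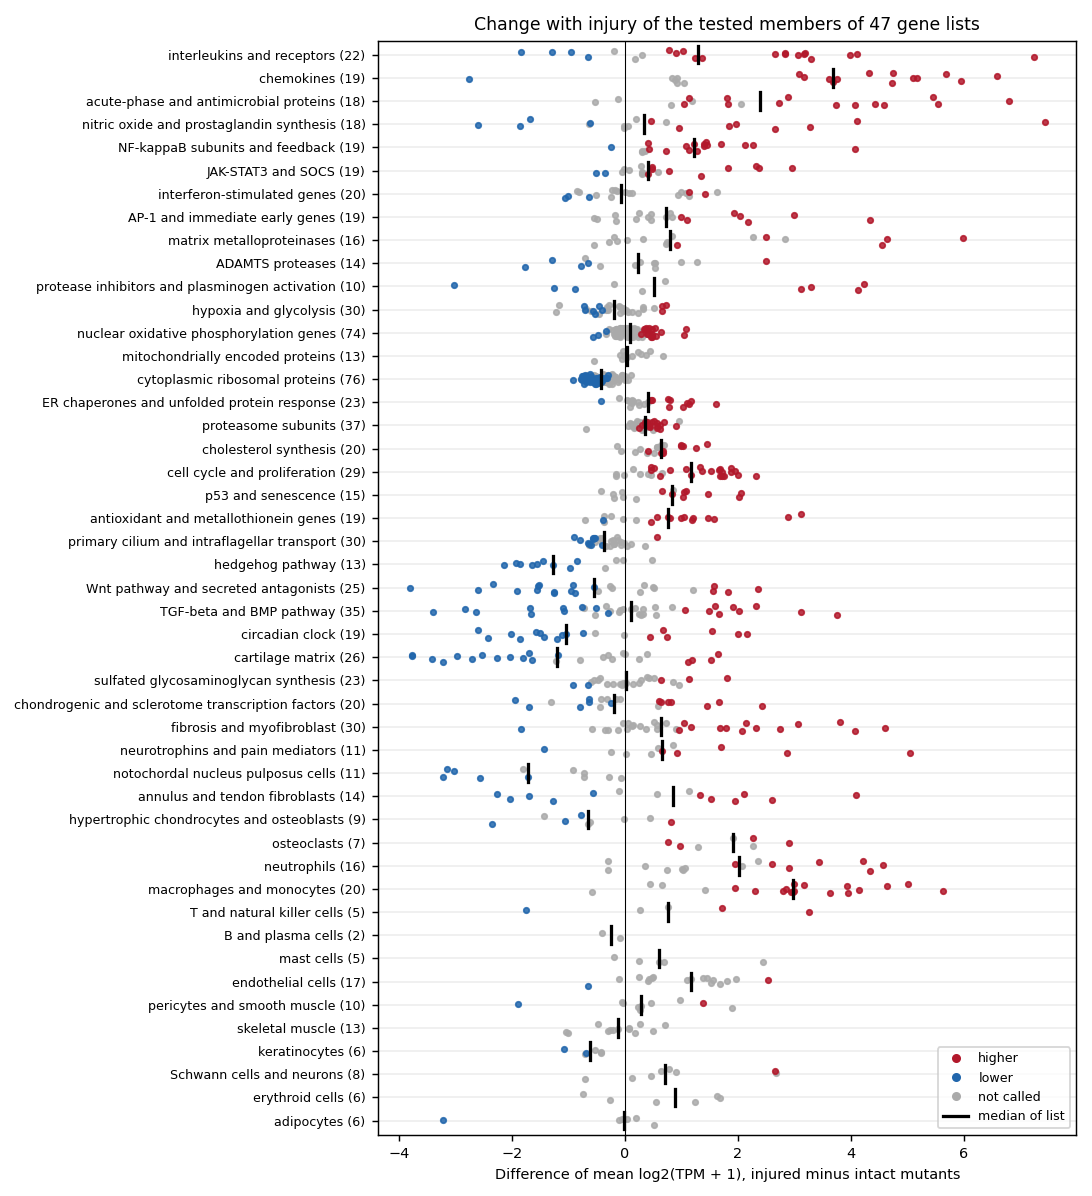
Difference of mean log2(TPM + 1), injured minus intact mutants, for every tested member of 47 gene lists, with red for genes called higher, blue for genes called lower, grey for genes not called and a black bar at each list's median. Chemokines (median 3.69) and macrophage markers (2.98) lie farthest right, and notochordal markers (-1.71) farthest left.

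Macrophage and monocyte markers rose in injured discs, with 16 of 20 tested higher, 0 lower and 4 not called (median 2.98). Their summed level was 1050 to 9676 TPM in injured libraries and 199 to 332 TPM in intact ones. Lyz2, lysozyme of myeloid cells, was at 1265, 5547, 757, 1577 and 414 TPM in injured mice and 33.6, 13.4, 53.7 and 15.4 TPM in intact mice. Tyrobp, an adaptor of myeloid receptors, was at 122.1, 431, 78.5, 158 and 29.6 TPM injured and 3.64, 0.943, 8.42 and 0.929 TPM intact. Ccr2, the receptor for Ccl2 on monocytes, was at 23.6, 48.3, 20.9, 54.9 and 17.2 TPM in injured mice and 0.778, 0.605, 2.71 and 0.458 TPM in intact mice. The groups did not overlap for any of these, and the highest injured mouse was mouse 2 for Lyz2 and Tyrobp and mouse 4 for Ccr2. Csf1r, a receptor of the lineage, was not called, at 53.8, 123, 40.1, 142 and 47.3 TPM injured and 63.1, 68.7, 41.3 and 41.4 TPM intact. The median was 3.81 among A8 libraries, 2.43 among M libraries, where 1 marker was called, and 2.61 without injured mouse 2. The part of leukocytes in the cytokine, protease and cell-cycle rises was not tested.

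Neutrophil markers were lower in level and more uneven. Their summed level was 30.3 to 1462 TPM in injured libraries and 9.23 to 16.9 TPM in intact ones, and 7 of 16 tested were higher and 0 lower (median 2.02). S100a9, a calcium-binding protein of neutrophils, was at 21.5, 336, 8.21, 26.8 and 3 TPM in injured mice and 0.775, 0, 0.566 and 0 TPM in intact mice. Csf3r, the receptor for their growth factor, was at 25, 297, 11.5, 31.9 and 7.03 TPM injured and 0.224, 0.0871, 0.328 and 0.515 TPM intact. Injured mouse 2 held by far the highest values and mouse 5 the lowest injured ones, and the call of S100a9 was lost without intact mouse 2 or 4 (4.09 each). The granule gene Elane was at 0 in all injured libraries, and Mpo, Ltf and Ly6g, which also define the lineage, did not exceed 0.43, 0.597 and 1.56 TPM in any of the 9. Without injured mouse 2 the median was 1.23 and 6 markers were called higher. Among M libraries it was 1.08, with 0 called.

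Most lymphocyte markers stayed low, and of 5 tested T and natural killer cell genes 2 were higher and 1 lower, while 9 were too low to be tested. Cd3d, Cd3e and Cd3g, subunits of the T cell receptor complex, did not exceed 0.19, 0.656 and 0.91 TPM in any mutant library. Il7r and Cd2, found on T cells among others, were higher (3.25 and 1.72), with Il7r at 2.74 to 58 TPM injured and 0 to 0.369 TPM intact. Lck, a kinase of T cells, was lower, at 1, 1.1, 1.67, 2.44 and 1.93 TPM in injured mice and 7.46, 7.84, 7.87 and 7.62 TPM in intact mice. Ms4a1 of B cells did not exceed 0.24 TPM, and 0 of 2 tested B cell genes and 0 of 5 tested mast cell genes were called. Genes of osteoclasts had 4 of 7 tested higher, led by Tnfrsf11a, the receptor for RANK ligand (2.90), with medians of 2.76 among A8 and 1.10 among M libraries, while Calcr, which marks mature osteoclasts, did not exceed 0.103 TPM.

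Endothelial markers lay higher on average (median 1.18, with 1.60 among A8 and 0.83 among M libraries), yet 1 of 17 tested was called higher and 1 lower. Plvap, of fenestrated vessels, rose by 2.53 ± 0.90 (SE, limma adjusted p 0.0294), a call that was lost without any 1 of 4 mice, injured mouse 2 among them (2.11 to 2.46). Cdh5, vascular cadherin, was not called, at 3.57, 21.9, 2.84, 4.46 and 7.76 TPM injured and 1.25, 0.225, 2.53 and 0.147 TPM intact. Its injured values were above the intact ones but spread widely, with mouse 2 highest. Among genes of pericytes and smooth muscle 1 was called higher and 1 lower, shares below the background of 13.1% and 17.7%. Myh11, smooth muscle myosin, fell by 1.90 and Des, desmin, rose by 1.38, a call lost without any 1 of 6 mice (1.16 to 1.41). The other genes of that list, Rgs5 and Pdgfrb among them, were not called. Skeletal muscle genes had 0 calls among 13, and their summed level was 34.2 to 876 TPM in injured libraries against 196 to 228 TPM in intact ones, lowest in mouse 2 and highest in mouse 4. Their median was -1.35 among A8 and 0.77 among M libraries. The summed level of Schwann cell and neuron genes was 29.4 to 363 TPM in injured libraries against 27.1 to 29.8 TPM in intact ones, with 1 of 8 tested higher. Of 6 tested erythroid genes 0 were called, and of 6 tested keratinocyte genes 2 were lower.

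**Figure D3:**
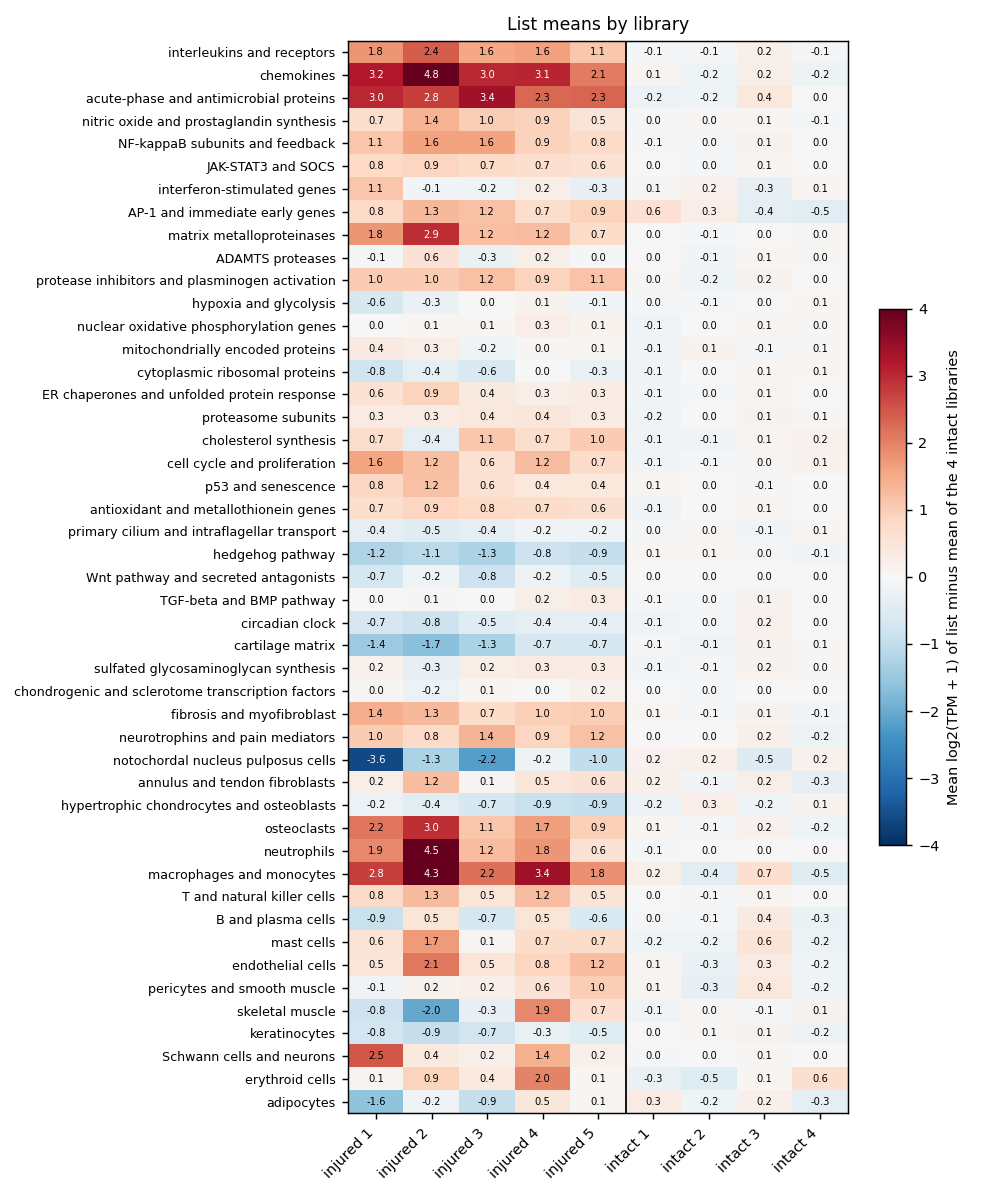
Mean log2(TPM + 1) of each list in each of the 9 libraries minus the mean of the 4 intact libraries, with red above and blue below 0. Injured mouse 2 is highest for chemokines (4.8), neutrophils (4.51) and macrophages (4.27) and lies below 0 for cholesterol synthesis (-0.38), and injured mouse 1 is lowest for notochordal markers (-3.60).

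Cell-cycle genes were higher in injured discs, with 21 of 29 tested called higher and 0 lower (median 1.16). Mki67, present in cycling cells, was at 37.3, 25.9, 11.4, 28.3 and 13.6 TPM in injured mice and 2.69, 3.16, 3.91 and 4.28 TPM in intact mice. Rrm2, which supplies deoxynucleotides, was at 25.2, 19.7, 9.28, 17.6 and 10.3 TPM injured and 2.77, 2.84, 3.63 and 4.92 TPM intact. The groups did not overlap, and mice 3 and 5 were the lowest of the injured. The mitotic genes Plk1 and Ccnb2 differed by 2.0 and 1.95, and the replication genes Pcna and Mcm2 by 0.80 and 0.46. The call of Mcm2 was lost without any 1 of 7 mice (0.39 to 0.48). No member was called among M libraries, where the median was 0.79, against 18 among A8 libraries (1.65). Cdkn1a, which encodes the cell-cycle inhibitor p21, rose alongside, at 657, 562, 510.0, 271 and 337 TPM in injured mice and 131, 97.2, 111 and 98.7 TPM in intact mice. Of 15 tested p53 and senescence genes 8 were higher and 0 lower, a count that fell to 5 without intact mouse 1, 2 or 3 and to 6 without injured mouse 2. The median was 0.83 among A8 and 0.47 among M libraries.

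Protein handling and stress genes rose by smaller amounts. Proteasome subunits had 18 of 37 tested higher and 0 lower (median 0.36, with 0.45 among A8 and 0.29 among M libraries, and 10 higher without intact mouse 1), led by the catalytic subunit Psmb5 (0.90). The immunoproteasome subunits Psmb8, Psmb9 and Psmb10 were not called. Of 23 tested endoplasmic reticulum and unfolded protein genes 10 were higher and 1 lower (medians of 0.69 among A8 and 0.13 among M libraries), with Atf4, the factor of the integrated stress response, at 886, 459, 748, 383 and 483 TPM injured and 182, 172.2, 209.8 and 169 TPM intact. Antioxidant genes had 12 of 19 tested higher and 1 lower (0.76 among A8 and 0.63 among M libraries), and 10 higher and 2 lower without injured mouse 2. Hmox1, heme oxygenase, was at 265, 699, 303, 222 and 145 TPM in injured mice and 21.5, 30.5, 45.1 and 34.1 TPM in intact mice, and Mt2, a metallothionein, at 718, 536, 1216, 826 and 1308 TPM injured and 92.9, 118, 152 and 114 TPM intact. No overlap was seen for Atf4, Hmox1 or Mt2.

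Genes of cytoplasmic ribosomal proteins fell slightly, with 38 of 76 tested lower, 0 higher and a median of -0.43 (-0.53 among A8 and -0.39 among M libraries, with 18 and 0 called). The count was 22 to 24 without injured mouse 1 or 3 or intact mouse 2, 3 or 4, and 25 with median-of-ratios scaling. The list mean was lowest in injured mice 1 and 3, and injured mouse 4 was level with the intact mice.

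Cholesterol synthesis genes had 10 of 20 tested higher and 0 lower (median 0.64), a count that depended on which mice entered. Among A8 libraries the median was 0.28 with 1 gene called, and among M libraries 0.80 with 8 called. Cyp51, a sterol demethylase, was at 68.1, 22.5, 93.2, 55.5 and 71.1 TPM in injured mice and 22.8, 19.4, 23.3 and 26.7 TPM in intact mice. Injured mouse 2 lay within the intact range, and the other injured mice lay above it. Without mouse 2, 17 of 20 were called higher and the median was 0.89, and without intact mouse 1 or 2 the count was 5 or 6. Mouse 2 was the highest for leukocyte markers, and their part in its low values was not tested.

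Nuclear genes of oxidative phosphorylation had 17 of 74 tested higher and 3 lower (median 0.09), a share above the background of 13.1% for rises and below that of 17.7% for falls, with 9 higher among A8 libraries and 0 called among M libraries. Ndufa4, a protein of the respiratory chain, was at 51.6, 48.1, 79.1, 53 and 59.2 TPM injured and 18.5, 23.5, 40.7 and 28 TPM intact. Cox5a, a subunit of cytochrome c oxidase, was at 31.1, 37.1, 31.5, 25.9 and 28.8 TPM in injured mice and 13.3, 11.7, 19.6 and 13.7 TPM in intact mice. Neither overlapped between the groups, with changes of 1.08 ± 0.22 (SE, limma adjusted p 0.0023) and 1.05 ± 0.16 (SE, limma adjusted p 0.000695). Glycolysis and hypoxia genes had 3 of 30 tested higher and 6 lower, shares near the background of 13.1% and 17.7%. The count lower was 2 or 3 without injured mouse 1 or intact mouse 2 or 4. The medians were -0.36 among A8 and -0.02 among M libraries. Hif1a, the hypoxia-inducible factor, rose by 0.65, while Pfkm, a phosphofructokinase, and Pdk1, a kinase that limits pyruvate entry into mitochondria, fell by 0.73 and 0.70. Of 13 mitochondrially encoded genes 0 were called. Among these, mt-Co2 and mt-Co3 did not exceed 9.65 and 4.13 TPM while mt-Co1 lay at 14807 to 24237 TPM, and how reads shared with nuclear copies were counted is not stated, so that list is uncertain.

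Fibrosis genes had 13 of 30 tested higher and 1 lower (median 0.65, with 1.0 among A8 and 0.70 among M libraries), with 8 higher without intact mouse 2. Fn1, fibronectin, was at 30834, 8596, 35566, 20569 and 31475 TPM injured and 6308, 5754, 8245 and 8202 TPM intact. Injured mouse 2 was close to the intact mice and the others well above them, a change of 1.69 ± 0.37 (SE, limma adjusted p 0.0166), whose call was lost without intact mouse 2 (1.60). Tnc, tenascin C of healing connective tissue, was at 81.9, 88.4, 31.5, 25.9 and 27.5 TPM in injured mice and 0.729, 1.01, 0.951 and 0.718 TPM in intact mice. Postn, periostin, was at 24.2, 51.7, 4.05, 29.1 and 17 TPM injured and 0.279, 0.144, 1.43 and 0.32 TPM intact. Both were higher in every injured mouse than in any intact one. Adam12, another membrane metalloprotease, rose by 4.08 ± 0.48 (SE, limma adjusted p 0.000173). The contractile genes Acta2, Tagln, Myl9 and Cnn1, which mark myofibroblasts, were not called. Thbs1, thrombospondin 1, was the member that fell, at 364, 941, 628, 519 and 521 TPM in injured mice and 2361, 2380, 1879 and 1625 TPM in intact mice. Of the fibrillar collagens, Col1a1 and Col1a2 were not called, while Col3a1 rose by 2.15 ± 0.75 (SE, limma adjusted p 0.027), a call lost without any 1 of 4 mice (1.88 to 2.15).

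In the TGF-beta family, the ligands Inhba and Bmp2 rose and several secreted antagonists fell. Inhba, which encodes a subunit of activin A, was at 557, 192, 1291, 511 and 867 TPM injured and 30.4, 35.1, 74 and 37.4 TPM intact. Bmp2, a bone morphogenetic protein, was at 123, 120.4, 386, 187 and 278 TPM in injured mice and 31.4, 23.4, 23 and 13.7 TPM in intact mice. The groups did not overlap for these ligands, and mice 3 and 5 were highest. The BMP antagonist Grem1 was at 336, 477, 112, 505 and 344 TPM injured and 1392, 1903, 2025 and 2820 TPM intact. Nog, noggin, was at 2.95, 10.4, 1.81, 7.9 and 10.4 TPM in injured mice and 55.1, 59.9, 25.3 and 53.4 TPM in intact mice. Both were lower in every injured mouse than in any intact one. Chrdl2 (-3.39), Chrdl1 (-1.68) and Chrd (-1.66), antagonists of the chordin type, were lower too, whereas Fst, an activin antagonist, was higher (1.91). Of 35 tested genes 9 were higher, 10 lower and 16 not called, and without injured mouse 2, 12 were higher and 9 lower.

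Neurotrophin and pain genes had 5 of 11 tested higher and 1 lower. Npy, a neuropeptide, was at 53.7, 76.4, 88.7, 53.1 and 192 TPM injured and 2.14, 2.22, 1.57 and 0.547 TPM intact. The groups did not overlap, and mouse 5 was highest. Piezo2, a channel that senses touch, fell by 1.43, while Piezo1, a related channel, rose by 0.66, a call lost without intact mouse 2 (0.54).

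Cartilage matrix genes fell in part. Of 26 tested, 13 were lower, 4 higher and 9 not called (median -1.20, with -1.35 among A8 and -1.18 among M libraries). Chad was at 2013, 1238, 3137, 4596 and 4292 TPM in injured mice and 17911, 17291, 17911 and 18411 TPM in intact mice. Cytl1, a secreted chondrocyte protein, was at 54.3, 157, 206, 696 and 592 TPM injured and 2992, 3121, 3771 and 3110 TPM intact. Comp, cartilage oligomeric matrix protein, was at 251, 402, 681, 1324 and 1129 TPM in injured mice and 3799, 3448, 3849 and 3644 TPM in intact mice. For these 3 every injured value was below every intact one, with mice 4 and 5 the highest of the injured. The changes were -2.71 ± 0.55 (SE, limma adjusted p 0.00305), -3.77 ± 0.78 (SE, limma adjusted p 0.00198) and -2.54 ± 0.51 (SE, limma adjusted p 0.00185). Ucma (-3.76), Chodl (-3.41), Cnmd (-3.22) and Cilp2 (-2.97) were lower as well.

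The genes of the main cartilage collagen and proteoglycan did not pass the test. Col2a1 was at 3510, 658, 3713, 3218 and 3557 TPM injured and 2084, 1946, 3316 and 3250 TPM intact. Acan was at 4515, 2426, 6676, 7024 and 6746 TPM in injured mice and 6310, 5926, 5926 and 6913 TPM in intact mice. Mouse 2 was lowest for both, and the groups overlapped. The Col2a1 difference was -0.04 ± 0.63 (SE, limma adjusted p 0.969), and 0.44 without mouse 2. Hapln1, the link protein that ties aggrecan to hyaluronan, was higher, at 2313, 1013, 1600, 986 and 1236 TPM injured and 585, 573, 583 and 631 TPM intact. Prg4, lubricin, rose by 1.53 ± 0.45 (SE, limma adjusted p 0.0156). Of 23 tested genes of glycosaminoglycan synthesis 3 were higher, a share near the background of 13.1%, and 2 lower, below that of 17.7%. Chsy1, a chondroitin synthase, was at 1.8 and Chst12, a sulfotransferase, at -0.92, and 6 genes were higher without mouse 2.

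Transcription factors of cartilage and sclerotome were mixed, with 7 of 20 tested higher and 6 lower. The count lower was 2 or 3 without injured mouse 1 or 2 or intact mouse 1, 2 or 4, and the count higher was 4 without intact mouse 4. Sox9, the chondrogenic regulator, was not called, at 718, 376, 968, 721 and 972 TPM in injured mice and 526, 494, 353 and 554 TPM in intact mice. Nkx3-2, a repressor active in sclerotome, was at 12.2, 39.6, 16, 22.3 and 25.4 TPM injured and 81.7, 85.1, 84.5 and 86.7 TPM intact. Runx1 was at 314, 158, 362, 233 and 306 TPM in injured mice and 99.4, 88.4, 103 and 93.5 TPM in intact mice. Nkx3-2 was below the intact mice in every injured mouse and Runx1 above them. Of 9 tested genes of hypertrophic chondrocytes and osteoblasts, Alpl, alkaline phosphatase (-2.34), Spp1, osteopontin (-1.06), and Col10a1, collagen X (-0.78), were lower and Runx2 higher (0.82). The calls of Spp1 and Col10a1 were lost without any 1 of 7 mice (-1.10 to -0.93) and of 2 mice (-0.70 and -0.55).

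**Figure D4:**
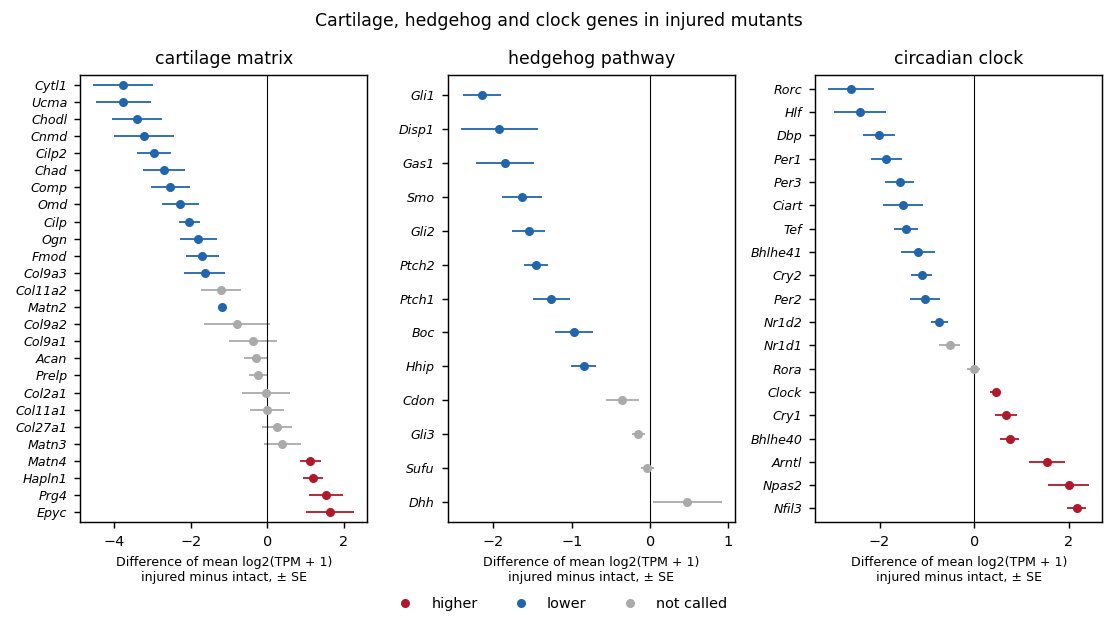
Difference of mean log2(TPM + 1), injured minus intact mutants, with its standard error, for the tested genes of cartilage matrix (26), the hedgehog pathway (13) and the circadian clock (19), in red where called higher, blue where called lower and grey where not called. The hedgehog panel holds 9 lower and 0 higher genes, and the clock panel 11 lower and 6 higher ones.

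The hedgehog pathway fell at receptors, co-receptors and effectors. Of 13 tested genes, 9 were lower, 0 higher and 4 not called, and none of the 9 overlapped between groups (median -1.26, with -1.25 among A8 and -1.14 among M libraries). Gli1, a transcription factor whose own level is a common readout of the pathway, was at 18, 25.5, 14.9, 29.6 and 26.4 TPM injured and 91.4, 101, 103 and 112 TPM intact. Ptch1, the receptor and itself a target, was at 44.5, 40.03, 35.3, 43 and 37.6 TPM in injured mice and 88, 84.9, 114 and 105 TPM in intact mice. Smo, the signal transducer, was at 67.1, 76.9, 60.3, 101 and 108 TPM injured and 269, 263, 231 and 252 TPM intact. All 3 were lower in every injured mouse, with changes of -2.15 ± 0.24 (SE, limma adjusted p 0.000153), -1.26 ± 0.24 (SE, limma adjusted p 0.00137) and -1.64 ± 0.26 (SE, limma adjusted p 0.000587). Gli2 (-1.55) and the membrane proteins Gas1 (-1.86), Disp1 (-1.93) and Boc (-0.98) were lower, and Gli3 and Sufu were not called. The ligand genes Shh and Ihh were too low to be tested, at most 0.485 and 0.869 TPM, and Dhh was not called. Genes of the primary cilium, through which hedgehog signals pass, had 10 of 30 tested lower and 1 higher (median -0.37, with -0.49 among A8 and -0.23 among M libraries), with 6 lower without intact mouse 2. Among M libraries 4 hedgehog genes and 1 cilium gene were called lower.

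Secreted Wnt antagonists led the falls in the Wnt list, which had 13 of 25 tested lower and 4 higher (median -0.55, with -0.83 among A8 and -0.46 among M libraries), with 2 higher without intact mouse 2. Sfrp5, the first of the 15 largest falls, was at 9.81, 134, 6.28, 46.2 and 17.7 TPM in injured mice and 436, 364, 302 and 295 TPM in intact mice. Frzb was at 120.2, 253, 99, 243 and 224 TPM injured and 829, 915, 873 and 920.1 TPM intact. Wif1 was at 179, 135, 175, 272 and 255 TPM in injured mice and 505, 533, 599.9 and 655 TPM in intact mice. None of these antagonists overlapped between groups, and injured mouse 2 kept the most Sfrp5 and Frzb. The receptors Fzd8, Fzd9 and Lrp5 were lower (-1.26, -1.52 and -1.25), and Sfrp1 and Sfrp2, also antagonists, were higher (1.83 and 2.36). The call of Sfrp1 was lost without any 1 of 7 mice (1.53 to 1.95). Axin2, a common target of canonical Wnt signals, was not called, with a difference of -0.47 ± 0.16 (SE, limma adjusted p 0.0865).

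Clock genes changed in both directions. Arntl, which encodes the activator BMAL1, was at 34, 25.5, 48.8, 34.2 and 38.2 TPM injured and 10.5, 12.4, 17.8 and 7.58 TPM intact. Nfil3, a repressor of D-box genes, was at 44, 57.9, 45.3, 33.2 and 35 TPM in injured mice and 9.58, 9.78, 9.19 and 6.42 TPM in intact mice. Both were higher in every injured mouse, and Npas2, which can stand in for Clock as the partner of BMAL1, rose too, with 32.4 TPM in injured mouse 2 against at most 13 TPM in intact mice. Dbp, an activator that acts on the same D-boxes as Nfil3, was lower, at 20.8, 27.2, 34, 49.7 and 44.9 TPM injured and 111, 118, 154 and 186 TPM intact. Per1, a repressor of BMAL1, was lower, at 82.7 to 123 TPM in injured mice against 348 to 385 TPM in intact ones. Hlf (-2.42) and Tef (-1.43), relatives of Dbp, and Per2 (-1.04) and Per3 (-1.57) were lower as well. The repressors Cry1 and Cry2 differed in direction, with Cry1 higher (0.67) and Cry2 lower (-1.11). The groups overlapped for Cry1, whose call was lost without any 1 of 6 mice (0.53 to 0.66). Of 19 tested, 11 were lower, 6 higher and 2 not called, and Nr1d1, REV-ERB alpha, was among the latter. The median was -1.04, with -1.02 among A8 and -0.79 among M libraries. The hour of collection is not given in the sources used here, so time of day and injury cannot be told apart.

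Notochordal markers fell unevenly. T was at 21.5, 593, 115, 1568 and 721 TPM in injured mice and 2634, 2828, 1789 and 2916 TPM in intact mice. Krt19, a keratin of notochordal cells, was at 2.23, 187, 31.4, 373 and 161 TPM injured and 623, 648, 337 and 582 TPM intact. Car3, carbonic anhydrase 3, was at 29, 2538, 432, 3678 and 2108 TPM in injured mice and 9247, 9402, 3696 and 7895 TPM in intact mice. Injured mouse 1 held the least of all 3 and mouse 3 was next, while mouse 4 was near or within the intact range. The change of T was -3.15 ± 1.01 (SE, limma adjusted p 0.0178). The calls of Krt19 and Car3 were each lost without injured mouse 3 or intact mouse 1, 2 or 4 (-2.98 to -2.77 and -3.17 to -3.02). Of 11 tested markers 5 were lower and 0 higher (median -1.71), with summed levels of 2600 to 10870 TPM in injured libraries and 10452 to 17735 TPM in intact ones. Noto, which defines the notochord, did not exceed 0.785 TPM. The median was -2.36 among A8 libraries, -0.68 among M libraries, where 0 were called, and -1.11 without injured mouse 1. The count lower was 2 without injured mouse 3 or intact mouse 1, 2 or 4, and 8 without injured mouse 4. The part of the dissected tissue's make-up in these falls was not tested.

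Several of the 15 largest falls outside the lists had their lowest values in the same mice. Slc15a5, a member of a transporter family, was at 1.56, 138, 9.32, 129 and 79.9 TPM injured and 411, 460.5, 165 and 331 TPM intact. Pcdh20, a protocadherin, was at 0.848, 12.4, 1.23, 17.7 and 8.56 TPM in injured mice and 73.1, 80.6, 19.6 and 52.2 TPM in intact mice. The call of Slc15a5 was lost without intact mouse 2 (-3.11). Injured mice 1 and 3 were lowest for both, and for Tmem255a (-3.19) and Ranbp3l (-3.05) too. Lepr, the leptin receptor, was at 6.14, 19.4, 8.6, 20.01 and 18.7 TPM injured and 139, 133, 119.9 and 99.4 TPM intact, and Myoc, myocilin, changed by -3.14 ± 0.71 (SE, limma adjusted p 0.00317). On the rising side Ctss, cathepsin S, and Pf4, platelet factor 4, changed by 5.49 ± 0.99 (SE, limma adjusted p 0.00101) and 5.41 ± 0.87 (SE, limma adjusted p 0.000619), both highest in injured mouse 2.

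Annulus and tendon markers were mixed, with 6 of 14 tested higher and 5 lower (median 0.86, with 0.97 among A8 and 0.61 among M libraries). The tendon factor Scx was at 15.5, 22.5, 20.7, 21.7 and 19.3 TPM in injured mice and 33.1, 26.6, 31.2 and 28.9 TPM in intact mice. Lum, lumican, was at 56.1, 197, 19, 18.8 and 20.8 TPM injured and 2.14, 0.909, 2.85 and 0.299 TPM intact. Scx was below every intact mouse in every injured one, and Lum above. The call of Scx was lost without any 1 of 8 mice (-0.62 to -0.48). Mkx (-1.27), another tendon factor, and Tnmd, tenomodulin (-2.03), were lower, while Dcn, decorin (1.52), and Col12a1 (2.6) were higher. Among M libraries 1 marker was called higher and 0 lower.

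**Figure D5:**
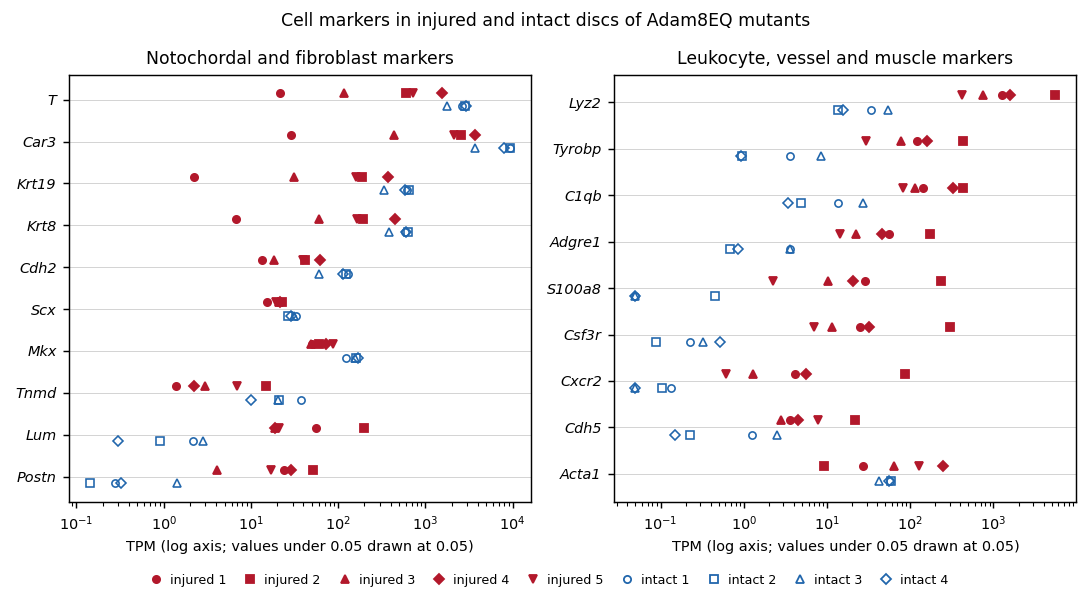
TPM on a log axis of notochordal and fibroblast markers (left) and of leukocyte, vessel and muscle markers (right), with filled red symbols for the 5 injured and open blue symbols for the 4 intact mutant mice. T spans 21.5 to 1568 TPM among injured mice and 1789 to 2916 TPM among intact ones.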

How the data were processed

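RNA-seq was made from 9 mutant and 7 wild-type mice, each library from 4 discs of a single tail. Extraction used Trizol and RNeasy columns, followed by FastSelect depletion of ribosomal RNA and NEBNext Ultra II library preparation, per the labels' protocols. The molecule field nevertheless names polyA RNA. The submitters' processing notes name bcl2fastq 2.20 and GRCm38. The aligner, the counter and the use of strand are not given in the sources used here, so overlapping, antisense and near-identical genes may share reads. The authors deposited 1 table of TPM, which corrects for gene length and library total and carries no counts. It holds 49315 genes, of which 14054 are at 0 throughout, and 99.5% of its identifiers are in GENCODE release M21.

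The 24188 genes that reached 1 TPM in 3 or more of 16 libraries were tested on log2(TPM + 1), with a pseudocount of 1 TPM, in limma 3.58.1 (R 4.3.3) with 1 mean per group, a mean-variance trend, the contrast injured minus intact mutants and Benjamini-Hochberg adjustment over all tested genes. Tables and figures used Python 3.11.15, pandas 2.3.3, numpy 2.4.6 and matplotlib 3.10.9. Exon lengths gave whole read numbers, within 0.05 of a read, for 93.1 to 93.8% of low values, so depths are estimates and no count test was run. In data simulated for this comparison with 200 of 24188 genes changed, the fit recovered 90% of changes of 2 log2 units and 58% of changes of 1, with 5 false calls. The simulation used normal noise of equal spread in every group and changed only genes with a mean log2(TPM + 1) above 1. The data gave 7438 calls, and genes such as Mmp3 spread far more in injured than in intact mice. The simulated rates are therefore not error rates of the calls reported here.

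The genes named by rule were the 15 largest rises and 15 largest falls among called genes without overlap, up to 5 called members of each of 47 lists, and Adam8. Other list members were named after their values were seen. The lists and members were chosen with earlier results of these data known, so they are described by counts and medians, with no test of a list. Alternatives covered filter, pseudocount, scaling, weights, covariates, the replicate block, library name style, the mutant libraries alone and each mouse left out.

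Mice of a group were taken as replicates by their titles. Mouse numbers were not taken to pair injured with intact mice. A few list members are not reported here.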

Additional observations from a re-analysis of the deposited data

Results flagged for a closer look

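In 15 of 156 groups of libraries (9.62%), 1 mutant library lay apart from the others of its group by Dixon's gap criterion. The criterion's nominal rate of about 1 in 20 assumes normally spread values. Single genes entered as TPM without logs, and the same libraries recur in every group, so the share cannot be compared with that rate. Among the injured mice, mouse 2 was lowest for the mean log2(TPM + 1) of cholesterol synthesis genes (4.272, median of the 5 mice 5.351) and of sulfated glycosaminoglycan synthesis genes (5.346, median 5.904). The same mouse was highest for Cxcl2 at 463.0 TPM (median 63.1), Lyz2 at 5547 TPM (median 1265) and Adam8 at 264.1 TPM (median 48.3). Injured mouse 3 was highest for Nos2 at 1516 TPM (median 523).

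Among the intact mice, mouse 3 was lowest for the mean of notochordal markers (7.594, median 8.287) and highest for the means of interleukin genes (3.554, median 3.285) and mast cell genes (0.9249, median 0.207). It was also highest for Cytl1 at 3771 TPM and Cnmd at 717.7 TPM, and for Wfdc17 at 1.663 TPM, a gene listed at 0 in the other 3. Intact mouse 2 was highest for Cxcl1 (2.516 TPM) and Saa3 (1.086 TPM), and intact mouse 1 for Adam8 (2.966 TPM).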

How the results depend on the processing

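Called genes numbered 3583 (1609 higher, 1974 lower) among A8 libraries alone, 725 (320 higher, 405 lower) among M libraries alone and 3159 (1455 higher, 1704 lower) at a minimum log2 change of 1. Leaving out each mutant mouse in turn gave 5332 to 7330. Fewer samples enter the subsets. With the replicate block 6718 genes were called (2951 higher, 3767 lower). Injured and intact mice of the same number correlated at -0.0115 to 0.0779 in their deviations, and those of different number at -0.071 to 0.0897. The check showed no pairing by number but cannot exclude it. Of 454 called list and leading genes, 325 kept direction and call under every alternative that tested them, other than the A8 and M subsets. Those subsets lost 197 and 367 calls, and 0 of the 454 genes turned sign. A filter at a mean of 5 TPM left some of the 454 genes untested.

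The medians of 8 of 47 lists and some genes that were not called turned sign under some of 22 alternatives, and the cause was not tested. The median of hypertrophic chondrocyte and osteoblast genes was 0.09226 with no filter. Il1a was at -0.2473 and Acan at 0.0902 on the log2 scale among M libraries. Ifit1 (0.2185) and Fos (-1.175) turned among A8 libraries. Col2a1 was at 0.2143 with array weights, 0.0514 with median-of-ratios scaling, 0.08825 among M libraries and 0.01505 with the skeletal muscle covariate. With single mice left out, the ranges were -0.8677 to 0.1349 for Ifit1, -0.4829 to 0.8587 for Fos, -0.07499 to 0.2838 for Adamts5 and -0.181 to 0.4428 for Col2a1. Only TPM is at hand, so the counting error of low values is not in the fit.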
